A study of Mus musculus with 13 samples.

Results

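Kupffer cells are the resident macrophages of the liver, and 10 genes that mark them in the mouse were examined in bulk liver RNA. The values were Clec4f, Vsig4, Timd4, Marco, Cd5l, Adgre1, C1qa, C1qb, C1qc and Csf1r. They were chosen by name as known markers and matched by symbol to the Ensembl identifiers of the count table. All 10 were present among the 53465 genes of the table and all 10 were among the 13545 genes with enough reads to be tested. Livers came from 6 wild type (WT) and 7 Nod2-/- male BALB/c mice. Every mouse, WT mice included, had received the carcinogen DMBA (dimethylbenzanthracene) and had been kept on a high fat diet. The labels give 30 weeks for the diet and also for age, and list the disease state of every mouse as cancer. The study describes a longer diet than the labels do. It reports liver tumors in a minority of WT males so treated, against nearly all Nod2-/- males, which also gained more weight. The cancer label therefore does not tell which of these livers held tumors. The part of tumors and body weight in the differences between the genotypes was not tested. Nod2 encodes an intracellular sensor of bacterial muramyl dipeptide. The deletion was in all cells, and the 2 genotypes were bred separately rather than as littermates, so genotype and breeding line cannot be told apart. Each library came from 1 mouse.

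Kupffer cells line the liver sinusoids, where they take up bacteria, dying cells and debris carried in portal blood. In the steady state they are seeded before birth and renew themselves in place, and monocytes can replace them when they are lost. Clec4f, a C-type lectin, is found almost solely on Kupffer cells in the mouse, whereas the C1q chains, Adgre1 and Csf1r are expressed by macrophages in many tissues.

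The sequences before the starts of these genes are shown because the levels of 2 regulators with known short motifs, Spi1 (PU.1) and Rbpj, are given further on. The windows hold the 250 bases before the RefSeq start in GRCm38.p6, written 5′ to 3′ on the strand of the gene. RefSeq windows were found for 7 of the 10 genes (Clec4f, Vsig4, Timd4, Marco, Cd5l, C1qb and C1qc). The 5 printed here cover the most Kupffer-restricted gene, 3 genes that followed it from mouse to mouse, and Marco. Over both genotypes together Marco did not follow Clec4f, though it did within WT mice (r = 0.812). Capitals mark GAGGAA (a PU-box) and TGGGAA (an RBPJ core) on either strand.
Clec4f (chr6:83656117-83656366, minus strand): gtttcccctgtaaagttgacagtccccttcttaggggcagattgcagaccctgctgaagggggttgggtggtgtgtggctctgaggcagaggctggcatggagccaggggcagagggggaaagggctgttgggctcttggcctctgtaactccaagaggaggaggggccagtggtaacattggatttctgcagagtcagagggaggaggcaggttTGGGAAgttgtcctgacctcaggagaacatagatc
Vsig4 (chrX:96293439-96293688, minus strand): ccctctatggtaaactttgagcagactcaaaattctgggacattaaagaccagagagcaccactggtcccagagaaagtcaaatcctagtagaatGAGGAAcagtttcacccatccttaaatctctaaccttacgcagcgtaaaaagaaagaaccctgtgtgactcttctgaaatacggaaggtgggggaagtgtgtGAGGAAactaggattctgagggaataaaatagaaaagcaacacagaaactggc
Cd5l (chr3:87357631-87357880, plus strand): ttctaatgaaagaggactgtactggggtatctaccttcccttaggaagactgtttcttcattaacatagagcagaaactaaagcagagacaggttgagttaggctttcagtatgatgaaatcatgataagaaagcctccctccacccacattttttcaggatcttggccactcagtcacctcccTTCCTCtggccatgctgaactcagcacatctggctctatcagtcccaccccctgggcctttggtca
C1qb (chr4:136886201-136886450, minus strand): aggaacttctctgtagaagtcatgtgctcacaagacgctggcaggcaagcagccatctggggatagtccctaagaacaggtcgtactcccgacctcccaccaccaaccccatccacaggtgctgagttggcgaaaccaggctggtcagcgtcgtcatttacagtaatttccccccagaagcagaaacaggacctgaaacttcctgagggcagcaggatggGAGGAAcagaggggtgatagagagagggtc
Marco (chr1:120505025-120505274, minus strand): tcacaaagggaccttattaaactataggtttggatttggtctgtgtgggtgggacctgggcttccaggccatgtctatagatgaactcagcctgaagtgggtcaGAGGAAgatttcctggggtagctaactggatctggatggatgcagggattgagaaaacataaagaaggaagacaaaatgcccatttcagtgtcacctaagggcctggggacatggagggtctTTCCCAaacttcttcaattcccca
The RefSeq start of Clec4f lies inside the GENCODE gene model. GAGGAA was found in 5 of the 7 windows (C1qb, C1qc, Cd5l, Marco and Vsig4), against 23.3% of 32851 RefSeq windows of the same length. In Vsig4 it occurred at 2 places. TGGGAA was found in Clec4f and Marco, against 21.6% of all windows. These matches describe letters only, and the 2 motifs did not overlap each other in the printed windows.

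Library totals ran from 14886273 to 20579984 counts for WT and from 13824780 to 19391431 for Nod2-/-. Nod2 itself had 0 to 4 counts in WT and 1 to 6 in Nod2-/- libraries, too few to check the genotype labels. All 11 hepatocyte markers matched were abundant in every library, and their sum was 94090 to 129500 CPM (counts scaled to a common library size) in WT and 96980 to 184600 CPM in Nod2-/- mice. Lung epithelium genes were also present in these liver libraries: Sftpc, encoding surfactant protein C, had 106 to 1786 normalized counts in WT and 7.84 to 251 in Nod2-/- mice. Nod2-/- replicate 7 stood apart from the other Nod2-/- libraries. Its 14 neutrophil markers summed to 1082 CPM, against at most 96.0 CPM in the other 6 Nod2-/- mice and 4.36 to 11.95 CPM in WT mice. The log2 fold changes of the Kupffer cell genes are given with and without this library. Some values of other genes are given with all mice only, and DESeq2 was not run without it.

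No Kupffer cell gene passed a 5% false discovery rate (FDR) between the genotypes. The quasi-likelihood test of edgeR, adjusted by Benjamini-Hochberg over all genes, called 0 of the 10, while 1.16% of all tested genes were called in either direction. DESeq2 also called 0 of the 10, against 8.52% of the genes it tested. Of the 10 genes, 9 had a higher mean in Nod2-/- mice and Marco had a lower one. The median log2 fold change of the 10 genes (Nod2-/- over WT) was 0.52, against 0.02 over all genes tested, of which 52.3% were higher in Nod2-/- mice. Cd5l, C1qa and Timd4, 3 of the 10, were higher at an unadjusted p under 0.05, a level that 12.9% of all genes reached in that direction. None of the 10 was lower at that level, which 10.2% of all genes reached. For none of the 10 did the normalized counts of the 2 groups separate without overlap, which happened for 1.44% of all genes. In bulk liver RNA, fewer cells of a type and less RNA per cell cannot be told apart.

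**Figure D1:**
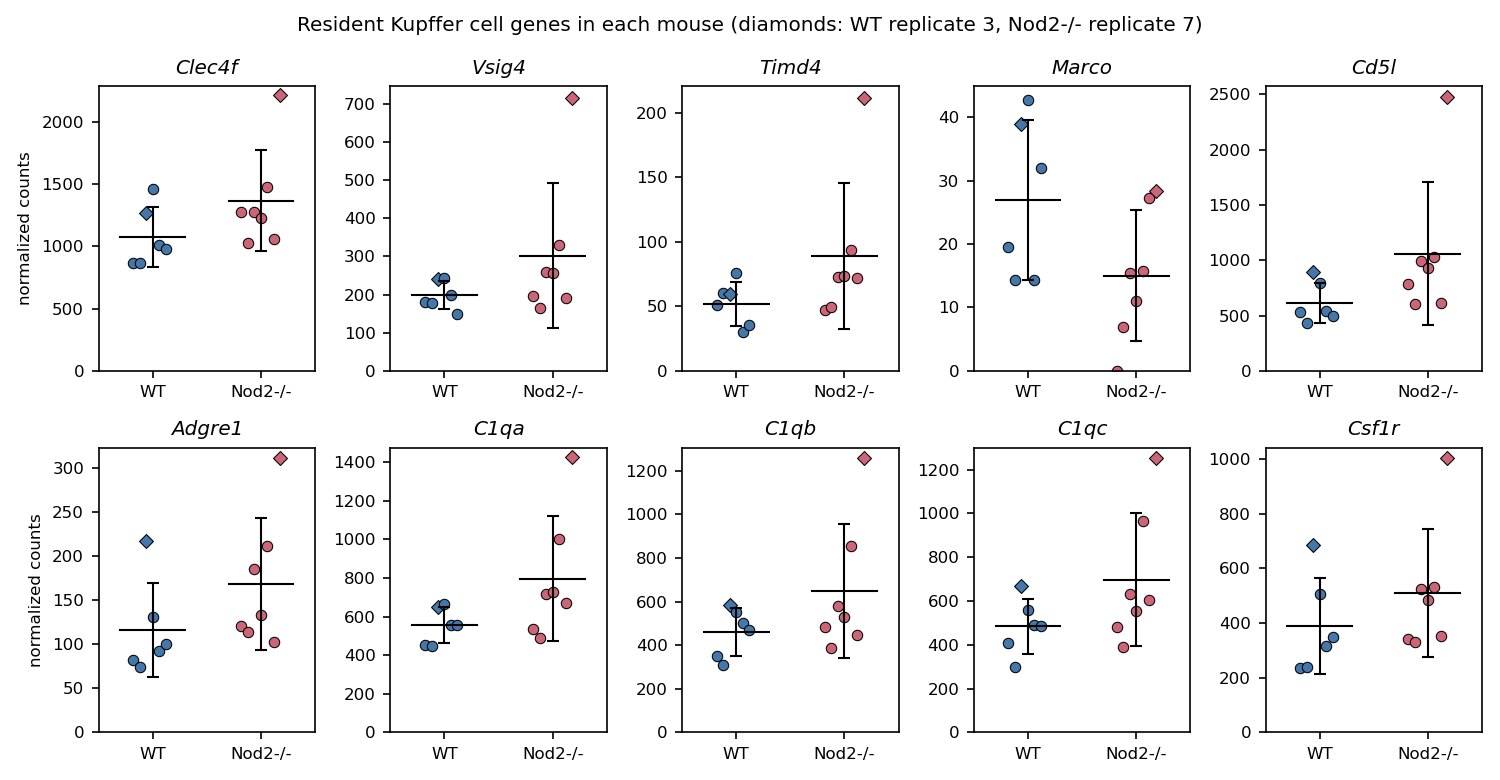
Normalized counts (vertical axes, starting at 0) of the 10 Kupffer cell genes in 6 WT mice (blue) and 7 Nod2-/- mice (red). Each point is 1 mouse, horizontal lines are means and bars are SD, and diamonds mark WT replicate 3 and Nod2-/- replicate 7. Nod2-/- replicate 7 is the highest Nod2-/- mouse in all 10 panels and the highest of all mice in 9.

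The size of the median difference depended on 1 mouse. Nod2-/- replicate 7 was the highest Nod2-/- mouse for all 10 genes and the highest of all 13 mice for every gene except Marco. It held between 23.2% (Clec4f) and 34.1% (Timd4) of the summed normalized counts of the 7 Nod2-/- mice. Without it the median log2 fold change of the 10 genes was 0.28, against 0.02 over all genes, and 1 gene (Cd5l) was higher at an unadjusted p under 0.05, as were 10.04% of all genes in that fit. Among WT mice, replicate 3 was highest for 5 of the genes (Cd5l, Adgre1, C1qb, C1qc and Csf1r) and replicate 4 for the other 5. Without WT replicate 3 the median was 0.62, against 0.00 over all genes, and 6 genes were higher at an unadjusted p under 0.05, as were 15.5% of all genes. That fit called more genes in both directions at 5% FDR (697 higher and 459 lower, against 88 and 69 with all mice). Without both mice, a setting added after the data were seen, 2 genes (Cd5l and Adgre1) were, beside 14.1% of all genes. Under each of these settings 0 of the 10 genes passed 5% FDR in edgeR.

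**Figure D2:**
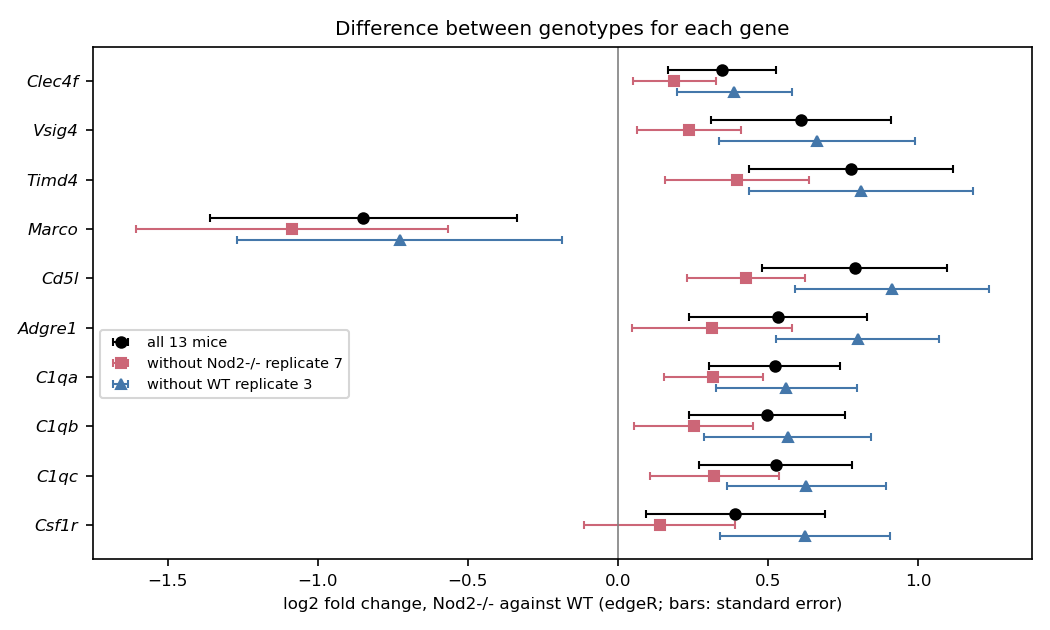
Log2 fold change of each gene (horizontal axis, Nod2-/- over WT, edgeR, bars are standard errors) with all 13 mice (black circles), without Nod2-/- replicate 7 (red squares) and without WT replicate 3 (blue triangles). The 9 genes other than Marco lie to the right of 0 in every setting and move toward 0 without Nod2-/- replicate 7, whereas Marco lies to the left.

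Clec4f had 863 to 1458 normalized counts in WT mice (median 997) and 1031 to 2219 in Nod2-/- mice (median 1275). Replicate 7 was the highest and replicate 5 the next among Nod2-/- mice, at 1474, which was close to the highest WT mouse. The groups overlapped, with 2 of 7 Nod2-/- mice above every WT mouse. The means were 1075 ± 240 (SD, n = 6) and 1366 ± 404 (SD, n = 7), with a log2 fold change of 0.35 (SE 0.18, edgeR adjusted p = 0.263). A 2-sided exact permutation test over the 1716 splits of the mice, whose smallest p is 0.000583, gave p = 0.127. Without replicate 7 the log2 fold change was 0.19. The gene lies on the minus strand of chromosome 6 (chr6:83644542-83656187, GRCm38).

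Vsig4, a complement receptor that binds C3 fragments on opsonized particles, had 150 to 242 normalized counts in WT mice (median 189) and 165 to 716 in Nod2-/- mice (median 257). In all, 4 of 7 Nod2-/- mice were above every WT mouse, and the next highest after replicate 7 was replicate 5 at 330. Its log2 fold change was 0.61 (SE 0.30, edgeR adjusted p = 0.237, exact permutation p = 0.177) and it was 0.24 without replicate 7.

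C1qa, C1qb and C1qc encode the 3 chains of C1q, the recognition unit of the classical complement pathway, and lie together on the minus strand of chromosome 4 (chr4:136880129-136898803, GRCm38) within 18.7 kb. C1qa had 445 to 664 normalized counts in WT mice (median 557) and 490 to 1427 in Nod2-/- mice (median 717). Of 7 Nod2-/- mice 5 were above every WT mouse, and the lowest, replicate 2, was within the WT range. Its log2 fold change was 0.52 (SE 0.22, edgeR p = 0.0308 before and 0.175 after adjustment, exact permutation p = 0.0839) and it was 0.32 without replicate 7.

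C1qb had 308 to 583 normalized counts in WT mice (median 484) and 386 to 1259 in Nod2-/- mice (median 532). C1qc had 298 to 668 in WT mice (median 488) and 390 to 1253 in Nod2-/- mice (median 604). For both genes the 2 Nod2-/- mice above every WT mouse were replicates 5 and 7. The log2 fold changes were 0.50 (SE 0.26, edgeR adjusted p = 0.263) for C1qb and 0.53 (SE 0.25, edgeR adjusted p = 0.231) for C1qc. The counts of C1qb per count of C1qa were 0.692 to 0.897 in WT and 0.669 to 0.896 in Nod2-/- mice, and those of C1qc per C1qa were 0.670 to 1.028 and 0.767 to 0.962. C1qc per C1qb ran from 0.968 to 1.17 in WT and from 0.995 to 1.35 in Nod2-/- mice. Without replicate 7 the log2 fold changes were 0.25 and 0.32.

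Timd4, a phosphatidylserine receptor for dying cells that marks long-resident Kupffer cells, had 29.8 to 75.7 normalized counts in WT mice (median 55.5) and 47.6 to 212 in Nod2-/- mice (median 72.9). The 2 Nod2-/- mice above every WT mouse were again replicates 5 and 7. Timd4 had a log2 fold change of 0.78 (SE 0.34, edgeR p = 0.0384 before and 0.193 after adjustment, exact permutation p = 0.0973), or 0.40 without replicate 7.

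Cd5l, a secreted scavenger-receptor-family protein also called apoptosis inhibitor of macrophages, had 429 to 890 normalized counts in WT mice (median 535) and 604 to 2471 in Nod2-/- mice (median 932). Replicates 3, 4, 5 and 7 of Nod2-/- were above every WT mouse. The means were 614 ± 184 (SD, n = 6) and 1060 ± 645 (SD, n = 7). Its log2 fold change of 0.79 (SE 0.31) was the largest increase among the 10 genes, with an edgeR p of 0.0216 before and 0.149 after adjustment and an exact permutation p of 0.0635. Leaving out replicate 7 gave 0.43 (SE 0.20) with an edgeR p of 0.0471 before and 0.271 after adjustment over all genes, and an exact permutation p of 0.0823. Among all the settings tried, the lowest adjusted p of Cd5l was 0.0828, in DESeq2.

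Adgre1 encodes F4/80, the surface protein long used to stain mouse macrophages. It had 74.6 to 217 normalized counts in WT mice (median 96.4) and 102 to 311 in Nod2-/- mice (median 133). WT replicate 3 was above all Nod2-/- mice except replicate 7. Adgre1 had a log2 fold change of 0.53 (SE 0.30, edgeR adjusted p = 0.296) and without WT replicate 3 it was 0.80 (edgeR adjusted p = 0.0800), the lowest adjusted p of any of the 10 genes in any setting. Without Nod2-/- replicate 7 it was 0.31 (edgeR adjusted p = 0.548).

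Csf1r, the receptor for the survival factors CSF1 and IL-34, had 237 to 687 normalized counts in WT mice (median 332) and 331 to 1003 in Nod2-/- mice (median 483). WT replicate 3 was above 6 of the 7 Nod2-/- mice. That gave a log2 fold change of 0.39 (SE 0.30, edgeR adjusted p = 0.443) and ranged from 0.14 without Nod2-/- replicate 7 to 0.62 without WT replicate 3. Csf1r overlaps Hmgxb3 on the opposite strand of chromosome 18, which had 183 to 352 counts per library, and whether strand was used in counting is not given in the sources used here. On that chromosome 3.72% of tested genes passed 5% FDR against 1.10% elsewhere.

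Marco, a class A scavenger receptor for bacteria and particles, went the other way. Its raw counts were 19, 13, 43, 39, 13 and 39 in WT replicates 1 to 6 and 0, 7, 15, 11, 18, 24 and 29 in Nod2-/- replicates 1 to 7. Replicates 1, 2 and 4 of Nod2-/- were below every WT mouse, and the highest, replicates 6 and 7, were within the WT range. The means were 26.9 ± 12.6 normalized counts (SD, n = 6) and 15.0 ± 10.3 (SD, n = 7). The log2 fold change was -0.85 (SE 0.51, edgeR adjusted p = 0.3303, exact permutation p = 0.0892), and over the other settings it lay between -1.67 and -0.64 without passing 5% FDR. Without Nod2-/- replicate 7 it was -1.09. The 0 counts of Nod2-/- replicate 1 allow up to 3 counts, or 3.17 normalized counts, and this limit covers counting error only. Alveolar macrophages of the lung also express Marco, and lung epithelium genes were therefore set beside it. Of 12 lung epithelium genes 7 were tested in edgeR, and 5 were lower in Nod2-/- mice at an unadjusted p under 0.05. In that test 0 passed 5% FDR (Sftpc, log2 fold change -3.09, edgeR adjusted p = 0.0712). The filter on low counts also keeps genes with enough reads in WT mice alone, so the count of lower genes is not independent of direction. DESeq2, which gave an adjusted p to 9 of the 12, called 6, all lower (Sftpa1, Sftpb, Sftpc, Sftpd, Slc34a2 and Scgb1a1). Scgb1a1 was not among those tested in edgeR. The sum of the 12 was 765 to 1366 CPM in WT and 299.9 to 1170 CPM in Nod2-/- mice, of which 95.3% was Cyp2f2, also a liver gene, and without it 14.4 to 202 and 3.13 to 33.8 CPM. The 10 alveolar macrophage markers summed to 4112 to 7682 CPM in WT and 2411 to 5990 CPM in Nod2-/- mice, of which 99.5% was Fabp1, abundant in hepatocytes, and without it to 9.77 to 31.3 and 17.4 to 37.4 CPM. In that list Ear1 and Krt79 had at most 2 counts in any library, Car4 at most 5 and Siglecf at most 7, while Ear2 had 7 to 55, Itgax 3 to 50, Chil3 0 to 114, Pparg 87 to 207 and Cidec 47 to 403. WT replicate 4 had the highest Sftpc (1786 normalized counts) and the highest Marco (42.8) of all mice. WT replicate 2 had the second highest Sftpc (1103) and the lowest WT Marco (14.3). The part of lung RNA in the difference of Marco was not tested further.

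**Figure D3:**
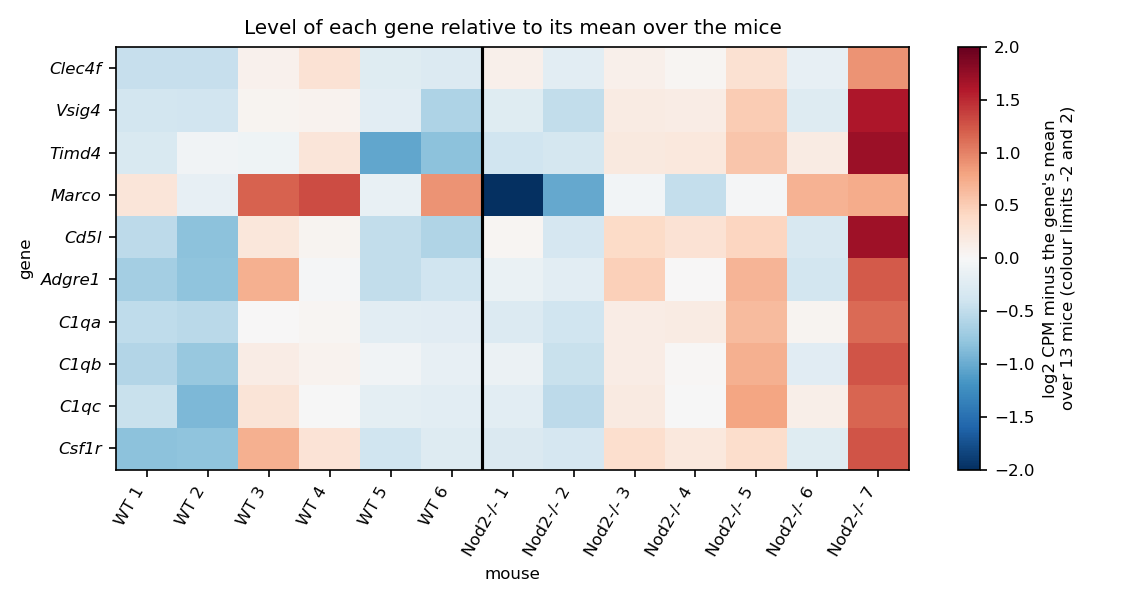
Log2 CPM of each gene (rows) in each mouse (columns, WT left of the black line and Nod2-/- right of it) minus the mean of the gene over 13 mice, in colour from -2 (blue) to 2 (red). Columns tend to be of 1 colour across rows except in the row of Marco, and Nod2-/- 7 is red throughout.

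Mouse-to-mouse differences over both genotypes together were shared by 9 of the 10 genes. Across the 13 mice, log2 CPM of Clec4f was correlated with that of 8 of the other 9 genes. The Pearson r was highest for Cd5l (0.956), then 0.936 for C1qb, 0.917 for Csf1r, 0.912 for Vsig4, 0.911 for C1qa, 0.900 for Adgre1, 0.885 for C1qc and 0.809 for Timd4. Permutation p-values adjusted over the 9 relations were 5.4e-05 to 0.0022 for these 8. The smallest p that 100000 resamples can give is 1e-05. Spearman's rho was 0.665 (Timd4) to 0.907 (Cd5l), with adjusted permutation p of 0.00018 to 0.0181. The 10 genes were measured in the same libraries.

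The relation was weaker but kept its sign without the extreme mice. After leaving out the 2 mice farthest from the median of Clec4f (Nod2-/- replicate 7 and WT replicate 2), r was 0.677 (Timd4) to 0.879 (Cd5l) for the 8 genes. Within WT mice (n = 6) r was 0.458 (Timd4) to 0.946 (C1qa), and within Nod2-/- mice (n = 7) it was 0.884 (C1qc) to 0.979 (Cd5l). Without replicate 7 the values within Nod2-/- mice (n = 6) were 0.544 (Timd4) to 0.921 (C1qb). Marco differed, with r = 0.125 (adjusted permutation p = 0.659) and rho = 0.209 (adjusted permutation p = 0.492), and r = -0.04 without the 2 mice. Within WT mice r of Marco with Clec4f was 0.812 and within Nod2-/- mice it was 0.308, or -0.11 without replicate 7. Whether the genotypes differ in this was not tested. Between pairs of the 9 genes other than Marco, r was 0.737 to 0.969 over 36 pairs, and the 3 C1q chains stood at 0.964 to 0.969.

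**Figure D4:**
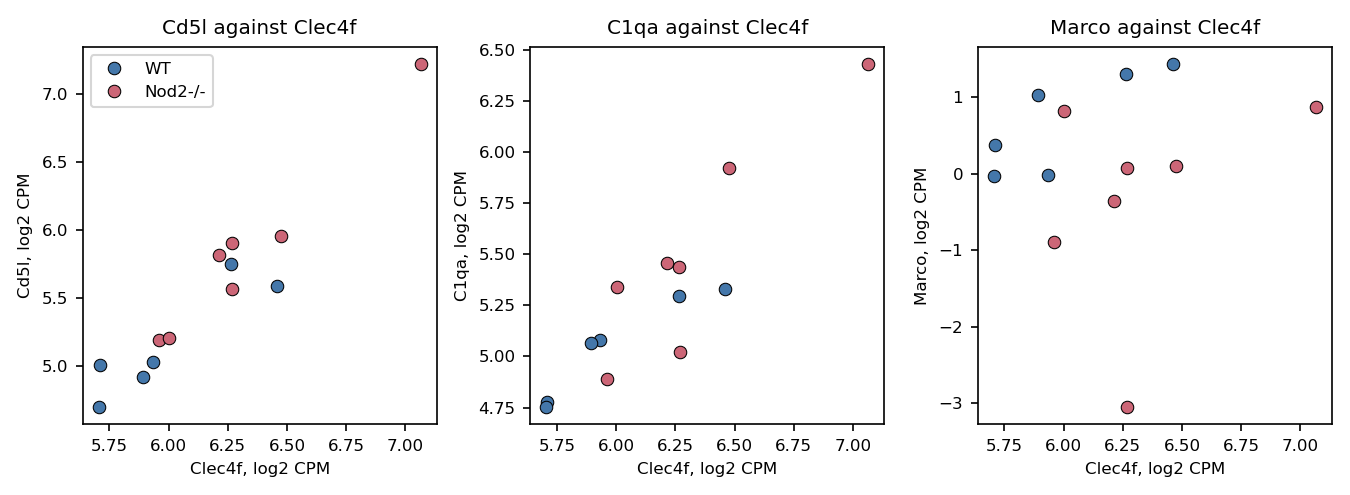
Log2 CPM of Cd5l, C1qa and Marco (vertical axes) against that of Clec4f (horizontal axes), with 1 point a mouse in WT (blue) and Nod2-/- (red). Cd5l and C1qa rise with Clec4f in both genotypes (r = 0.956 and 0.911), while Marco does not over the 13 mice (r = 0.125), and its lowest point is Nod2-/- replicate 1.

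The counts were also set against those of Clec4f in the same mouse. Marco had 1.42 to 3.25 counts per 100 Clec4f counts in WT mice (median 2.59) and 0 to 2.58 in Nod2-/- mice (median 1.07). Of 7 Nod2-/- mice 6 were below every WT mouse, and the exception was replicate 6. The lowest WT ratio rests on 13 Marco counts in WT replicate 5. Nod2-/- replicates 3, 5 and 7 lay near it, at 1.21, 1.07 and 1.28. Replicate 7 had the highest Clec4f of all mice (2219 normalized counts), and its Marco (28.4) was above the WT median (25.7). Cd5l had 49.7 to 70.0 counts per 100 Clec4f counts in WT mice (median 53.9) and 57.5 to 111 in Nod2-/- mice (median 69.8). Replicates 3, 4 and 7 of Nod2-/- were above every WT mouse. Vsig4 stood at 15.3 to 20.7 for WT and at 15.3 to 32.3 for Nod2-/- mice, of which replicates 4, 5 and 7 passed the WT maximum. Csf1r and Adgre1 were highest relative to Clec4f in WT replicate 3, at 54.0 and 17.1. These ratios were compared as a description, with no test.

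**Figure D5:**
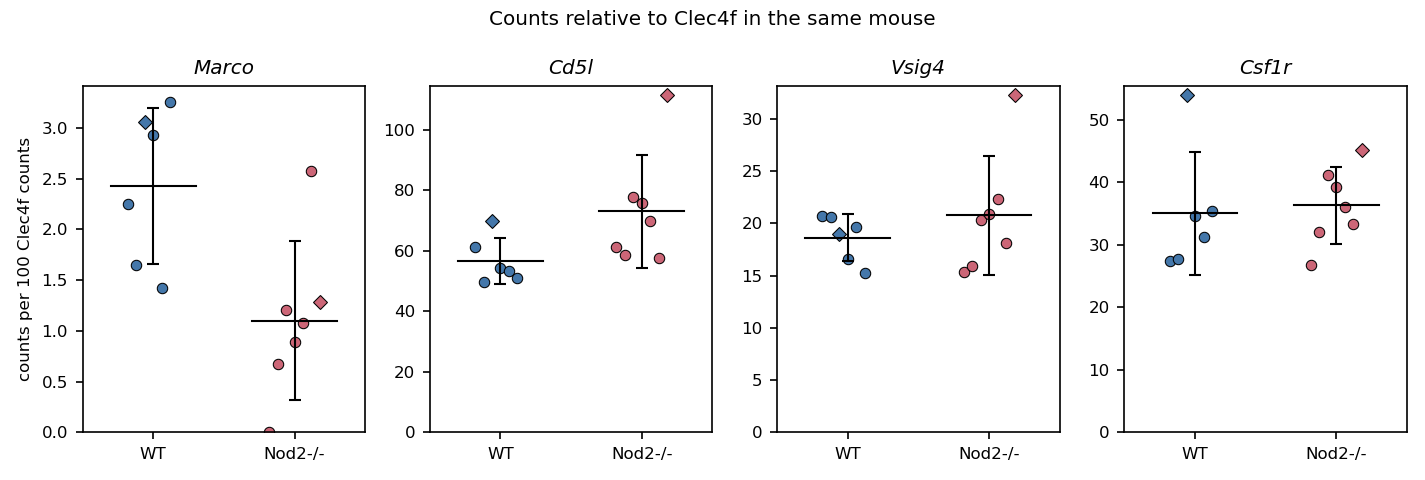
Counts of Marco, Cd5l, Vsig4 and Csf1r per 100 Clec4f counts of the same mouse (vertical axes, starting at 0) in WT (blue) and Nod2-/- (red), with means, SD bars and diamonds for WT replicate 3 and Nod2-/- replicate 7. Marco is below the WT range in 6 of 7 Nod2-/- mice, and Cd5l and Vsig4 are highest in Nod2-/- replicate 7. The lowest WT ratio of Marco rests on 13 counts.

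Levels were compared between genes per kilobase of exon, with every annotated exon of a gene included. C1qc was given 1931 bases, against 1040 for C1qa and 1088 for C1qb, so its rank depends on the annotated length. C1qa was the most abundant, at 32.1 ± 5.40 CPM per kb in WT (SD, n = 6) and 46.2 ± 18.8 in Nod2-/- mice (SD, n = 7). It was followed by C1qb, Clec4f, Cd5l, C1qc, Vsig4, Csf1r, Adgre1 and Timd4, and Marco was last at 0.844 ± 0.394 and 0.469 ± 0.323. C1qb was above Clec4f in only 6 of 13 mice, so that these neighbours were not ordered beyond their spread. All other neighbours kept their order in at least 10 of 13 mice.

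The ligands of Csf1r were higher on average in Nod2-/- mice without passing the test. Csf1 had 60.5 to 140 normalized counts in WT and 101 to 340 in Nod2-/- mice, with a log2 fold change of 0.80 (SE 0.29, edgeR adjusted p = 0.129). Il34 had a log2 fold change of 0.57 (edgeR adjusted p = 0.253). In the list of Csf1r ligands and related growth factor genes, 0 of 5 tested genes passed 5% FDR in edgeR and 3 had an unadjusted p under 0.05, all higher (2 without Nod2-/- replicate 7). DESeq2 called 1 of them, Csf2rb2, a receptor subunit for cytokines of the IL-3 family (log2 fold change 2.02, DESeq2 adjusted p = 0.0287). Csf2 of that list had at most 3 counts in every mouse.

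Among 15 regulators of macrophage and Kupffer cell identity, the median log2 fold change was 0.05. Zeb2, a zinc finger repressor, had 135 ± 21.8 normalized counts in WT (SD, n = 6) and 171 ± 33.0 in Nod2-/- mice (SD, n = 7), with a log2 fold change of 0.34 (SE 0.14, edgeR adjusted p = 0.167). Spi1, whose product PU.1 binds the PU-box, had a log2 fold change of 1.03 (edgeR adjusted p = 0.181) and 0.49 without Nod2-/- replicate 7, while Rbpj was at 0.00 and Nr1h3, encoding the sterol sensor LXR alpha, was at -0.04.

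Of 22 other genes enriched in Kupffer cells, 20 were tested, 17 had a higher mean in Nod2-/- mice, and 0 passed 5% FDR in edgeR against 3 in DESeq2 (Ctsc, Cfp and Clec1b, all higher). An unadjusted p under 0.05 was reached by 6 of them, all higher (4 without Nod2-/- replicate 7), and the median log2 fold change was 0.27. Ctsc, encoding the protease cathepsin C, had the lowest p (log2 fold change 0.99, edgeR adjusted p = 0.0710). It was followed by Cfp, encoding the complement factor properdin (0.80, edgeR adjusted p = 0.0903), and Clec1b, a C-type lectin that binds podoplanin (0.77, edgeR adjusted p = 0.0995). Cd163, the haemoglobin scavenger receptor, was lower in mean (-0.55, edgeR adjusted p = 0.287), as were Hpgd and Mertk.

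Around C1q and Vsig4, the complement genes made chiefly by hepatocytes showed no shared direction. Of 15 partners of C1q in the classical pathway 14 were tested, 7 were higher and 7 lower in mean, and 0 had an unadjusted p under 0.05. The median log2 fold change was -0.01. C4b had the lowest p (log2 fold change 0.35, edgeR adjusted p = 0.218), and C1s1, the protease that C1q activates through C1r, was at 0.03. Of 8 complement receptors and regulators tested, 7 were higher and 1 was lower in mean. Their median log2 fold change was 0.45, or 0.18 without Nod2-/- replicate 7. In this list 0 genes passed 5% FDR in edgeR or DESeq2, and Cd46 had the lowest p (log2 fold change 0.49, edgeR adjusted p = 0.185).

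Other receptors for dying cells and particles, with their bridging ligands, formed a list of 14 genes, of which 13 were tested, and 2 rose at 5% FDR in edgeR while 0 fell. DESeq2 called these and also Pros1 and Cd300lf, both higher. Gas6, which bridges phosphatidylserine on dying cells to the receptors Axl and Mertk, had 479 to 675 normalized counts in WT (median 551) and 777 to 1632 in Nod2-/- mice. The groups did not overlap. The log2 fold change of Gas6 was 0.85 (SE 0.16, edgeR adjusted p = 0.0222, exact permutation p = 0.00117). It passed in 18 of 21 other settings, and failed without WT replicate 1, 2 or 4, with adjusted p of at most 0.0707. Msr1, the class A scavenger receptor related to Marco, had 104 to 196 normalized counts in WT and 189 to 404 in Nod2-/- mice, and 6 of 7 Nod2-/- mice were above every WT mouse. Its log2 fold change was 0.88 (SE 0.20, edgeR adjusted p = 0.0486) and 0.74 without Nod2-/- replicate 7 (edgeR adjusted p = 0.0831), and it passed in 10 of 21 other settings. Both genes lie on chromosome 8, as does Nod2, where 1.07% of tested genes passed against 1.16% elsewhere.

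Markers of other leukocytes are given beside the Kupffer cell genes. All 15 genes of macrophages and monocytes in general were higher in mean in Nod2-/- mice, with 9 at an unadjusted p under 0.05 (5 without Nod2-/- replicate 7). At 5% FDR edgeR called 0 of them and DESeq2 1, Cd14. Their sum was 183 to 432 CPM in WT and 259 to 860 CPM in Nod2-/- mice, with the highest value in replicate 7. The sum of the 10 Kupffer cell genes was 175 to 320 CPM in WT and 215 to 657 CPM in Nod2-/- mice. Csf3r of the general list was also in the neutrophil list, and replicate 7 held 66.4% of its normalized counts summed over Nod2-/- mice. Of 11 monocyte markers 6 were tested, 0 passed 5% FDR in edgeR or DESeq2 and 3 had an unadjusted p under 0.05 (2 without replicate 7). Their sum, 1360 to 2022 CPM in WT and 1442 to 2897 CPM in Nod2-/- mice, was 98.8% Fn1, which hepatocytes also make, and without it was 9.95 to 16.02 and 10.97 to 73.4 CPM. Of 14 neutrophil markers 5 were tested in edgeR. All 5 were higher at an unadjusted p under 0.05 (4 without replicate 7), and 0 passed 5% FDR. DESeq2, which gave an adjusted p to 6 of the 14, called 4 (S100a8, S100a9, Ngp and Prtn3, all higher). Ngp was not among those tested in edgeR. The filter on low counts also keeps genes with enough reads in Nod2-/- mice alone, so the markers tested are not independent of direction. Prtn3 had 12.9 to 1223 normalized counts in Nod2-/- mice and 2.05 to 31.9 in WT mice. Ltf, Ngp, Camp, Retnlg, Elane, Mpo, Ly6g, Mmp8 and Mmp9 of that list had 0 counts in at least 1 mouse. Of 12 genes of lipid-associated macrophages 6 had an unadjusted p under 0.05, all higher (also 6 without replicate 7). At 5% FDR 0 passed in edgeR against 3 in DESeq2 (Cd9, Lgals3 and Lpl, all higher). The sum of those 12 was 14870 to 20150 CPM in WT and 13070 to 20720 CPM in Nod2-/- mice, of which 96.9% was Apoe, also made by hepatocytes. Without Apoe the sum was 273 to 597 CPM in WT and 461 to 1092 CPM in Nod2-/- mice. The part of these cells in the values of the Kupffer cell genes was not tested.

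Sinusoidal endothelial markers had 0 genes past 5% FDR in edgeR and 1 in DESeq2 (Pecam1, higher), with a median log2 fold change of 0.10 over 12 genes. Among 10 stellate cell markers 1 passed, Rgs5, which also marks pericytes (log2 fold change 0.56, edgeR adjusted p = 0.0490), and it passed in 9 of 21 other settings. Hepatocyte markers had a median of -0.26 over 11 genes, with 0 past 5% FDR in edgeR and 3 in DESeq2 (Cyp2e1, Hnf4a and Cps1, all lower). Of the dendritic cell markers 3 of 10 were tested, of those of large peritoneal macrophages 6 of 8 and of those of T and B cells 3 of 11, and 0 in each list passed 5% FDR in edgeR. DESeq2 called Cd24a of the dendritic list and Selp of the peritoneal list, both higher.

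The 10 genes whose mouse-to-mouse pattern was most like the mean of the Kupffer cell genes were Fermt3, Fcer1g, Rac2, AB124611, Lair1, Clec1b, Fcgr4, Trpm2, Lcp2 and Cd300c2. Likeness was the Pearson r of log2 CPM over 13 mice after removing the mean of each genotype, and it ran from 0.976 (Fermt3) to 0.941 (Cd300c2). Without Nod2-/- replicate 7 it ran from 0.884 to 0.952 for the same genes. Among the 10 Kupffer cell genes themselves r with this mean, which includes them, was lowest for Marco (0.72) and highest for C1qa (0.968). None of these 10 most similar genes passed 5% FDR between the genotypes in edgeR, and their lowest adjusted p was 0.0995 (Clec1b).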

How the data were processed

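Poly(A) RNA from the liver of 13 mice was made into stranded Illumina libraries and sequenced in pairs. Per the labels and the study's methods, the authors trimmed reads with Trimmomatic 0.33, aligned them to GRCm38 with TopHat2 2.1.1 and deposited raw read counts per GENCODE gene. The counting program is not given in the sources used here. Symbols were assigned to 53274 of 53465 identifiers from a GRCm38 GENCODE annotation. The deposited table had 1 entry without a gene identifier, which was left out.

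The genotypes were compared by edgeR 4.0.16 under R 4.3.3 (normalization by TMM, filterByExpr, glmQLFTest, 2-sided, Benjamini-Hochberg over all 13545 genes tested), WT against Nod2-/-, with no covariates. Normalized counts are counts divided by TMM-scaled library size. Log2 CPM used a prior count of 2. The code was tested on simulated counts. Correlations used 100000 permutations. Alternatives were DESeq2 1.42.0, limma 3.58.1 (voomWithQualityWeights), other normalizations and filters, each mouse left out, and the replicate number as a block.

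Named genes were the 10 Kupffer cell genes, the genes of each of 18 lists past 5% FDR or otherwise up to 4 with the lowest p, and the 10 genes most alike in pattern. Cd163, Rbpj, Nr1h3, Ngp, Scgb1a1, Sftpd, Cd300lf, C1s1, Hpgd, Mertk and markers with few counts were named after their values were seen. A planned result is not reported here. The genes and lists were chosen with earlier results of these data known. Libraries of 1 genotype were distinct beyond counting error (36 pairs compared, chi-square over its degrees of freedom at least 11.7).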

Additional observations from a re-analysis of the deposited data

Results flagged for a closer look

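In 5 cases 1 value stood far from the others of their group, all in Nod2-/- replicate 7. The gap to the next mouse exceeded Dixon's 95% critical value for 7 samples. The values were Clec4f at 2219 normalized counts (next 1474), Vsig4 at 716 (next 330), Timd4 at 212 (next 94.1), Cd5l at 2471 (next 1028) and Csf1r at 1003 (next 533). They come from 20 groups checked (10 genes in 2 genotypes), and chance flags about 1 in 20 groups. The 5 are not independent, because they come from 1 library and the genes rise and fall together. The neutrophil markers of this library summed to 1082 CPM, against at most 96.0 CPM in the other Nod2-/- mice.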

How the results depend on the processing

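The 10 Kupffer cell genes kept their direction and stayed short of 5% FDR in all 209 values given by the alternatives (21 for each gene and 20 for Marco, which a stricter count filter removed). The number of genes called did change with the fit. Against 88 higher and 69 lower genes in edgeR, DESeq2 called 630 and 582 and voomWithQualityWeights 519 and 324. Leaving out 1 mouse gave 20 to 697 higher genes and 20 to 459 lower, the upper ends without WT replicate 3, and leaving out WT replicate 3 and Nod2-/- replicate 7 together gave 408 and 159. Of the genes on the 18 lists, 3 were called in edgeR, 30 in DESeq2, 15 with voomWithQualityWeights, 0 to 22 with 1 mouse left out and 14 without both mice. The causes were not tested.

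Mice with the same replicate number in both genotypes did not deviate together (correlations from -0.30 to 0.30 over 6 pairs), and 0 of 6 WT mice correlated best with their own number. With the replicate number as a block, in which Nod2-/- replicate 7 has no partner and carries no weight, 17 genes were higher, 18 lower and 1 list gene was called.

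A few small differences changed sign. The log2 fold change of C5ar1 was -0.06 under the block and -0.10 to 0.73 with mice left out, -0.05 without both mice. That of Jchain was -0.027 under the block and -0.064 to 0.17 with mice left out, and that of Fn1 was -0.008 to 0.24. The r of Clec4f with Marco was -0.021 to 0.33 with 1 mouse left out. With 13 mice and Marco at no more than 43 counts per library, smaller differences of Marco were beyond the precision of these data.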
